A study of Mus musculus with 12 samples.

Results

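The myelin genes Mbp, Mobp, Mal, Mag, Mog, Cldn11, Opalin, Cnp and Myrf were followed in single nuclei of the mouse motor cortex. They were taken by name, as 9 of the 31053 genes in the deposited matrix, and the rule uses no measured value. Nuclei came from the caudal forelimb area, a part of the primary motor cortex, on the right side of 6 mice aged 13 weeks. The 3 trained mice (2, 4 and 6) pressed a lever with the left paw, head-fixed, on days 11 to 13 and drank part of their daily water as the reward. The 3 control mice (1, 3 and 5) received all of it in the home cage. Both groups were held to 1 mL of water per day, so the restriction is shared by all 6 mice. RNA in nuclei was captured in droplets by its 3' end, and each molecule was counted once through its unique molecular identifier (UMI).

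Oligodendrocytes wrap axons in layers of their own membrane, and myelin is the compacted stack of these layers. Precursor cells of the lineage stop dividing, pass through a short differentiating stage and then switch on the genes of the sheath together. The transcription factors MYRF and SOX10 are known activators of these genes, and new myelin is known to form in the adult mouse cortex during motor learning.

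The members have different roles in the sheath. Mbp encodes myelin basic protein, which holds the cytoplasmic faces of the membrane together, and its messenger RNA is carried into the oligodendrocyte processes. The Mbp gene also gives golli transcripts from an upstream start, which neurons are known to make, and counts per gene cannot separate the kinds. Mobp encodes another basic protein of the compact sheath, and Mal a small membrane protein that takes part in the sorting of lipids and proteins. Mag and Mog encode adhesion proteins of the immunoglobulin family, Mag on the membrane facing the axon and Mog on the outermost surface. Cldn11 encodes the claudin of the tight junctions between myelin layers. Opalin encodes a glycoprotein of oligodendrocyte membranes. Cnp encodes an enzyme of the non-compacted cytoplasm, and Myrf the transcription factor named above.

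Promoter sequence was available in the RefSeq table (GRCm38.p6) for 7 of the 9 members. The window from base 250 to base 61 before the start, 190 bases, was searched on both strands for CTGGCAC, a core of the MYRF motif, and for ACAAAG, a core of the SOX10 motif, neither of which contains the other. The windows with matches are shown, in capitals (CTTTGT is ACAAAG and GTGCCAG is CTGGCAC on the other strand). Mag (chr7:30914924-30915113, minus strand) and Cnp (chr11:100574689-100574878, plus strand) held 1 match of each motif. Mobp (chr9:120149492-120149681, plus strand) held 6 SOX10 matches, and Opalin (chr19:41077174-41077363, minus strand) held 1.
Mag: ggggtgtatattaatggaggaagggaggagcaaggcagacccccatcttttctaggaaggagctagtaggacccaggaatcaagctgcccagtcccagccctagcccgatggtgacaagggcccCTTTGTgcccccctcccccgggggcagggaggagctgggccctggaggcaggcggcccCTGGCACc
Cnp: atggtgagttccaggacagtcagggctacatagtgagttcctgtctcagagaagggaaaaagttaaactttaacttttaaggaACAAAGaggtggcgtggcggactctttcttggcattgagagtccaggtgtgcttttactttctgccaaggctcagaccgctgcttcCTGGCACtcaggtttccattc
Mobp: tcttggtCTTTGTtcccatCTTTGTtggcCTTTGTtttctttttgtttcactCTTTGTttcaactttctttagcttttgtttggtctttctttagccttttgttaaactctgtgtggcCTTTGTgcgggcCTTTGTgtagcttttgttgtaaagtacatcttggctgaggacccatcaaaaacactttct
Opalin: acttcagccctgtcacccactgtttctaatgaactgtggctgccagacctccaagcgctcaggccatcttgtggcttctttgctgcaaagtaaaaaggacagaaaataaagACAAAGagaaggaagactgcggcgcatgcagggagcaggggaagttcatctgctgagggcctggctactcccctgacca
Of 32851 promoter windows in the table, 3.20% held CTGGCAC and 13.0% held ACAAAG. The windows of Mal, Cldn11 and Mog held neither. For Mag the table lists other starts too, and the first listed is shown. The Mag window at chr7:30914983-30915172 held 0 MYRF matches and 1 SOX10 match, and that at chr7:30914382-30914571 held 0 of each.

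The genes lie apart in the mm10 genome. In the GENCODE M21 annotation Mbp lies at 18:82475146-82585637 on the plus strand, Mobp at 9:120149707-120181484 (plus) and Mal at 2:127633226-127656695 (minus). Mag lies at 7:30899176-30914873 (minus), Mog at 17:37010743-37023398 (minus) and Cldn11 at 3:31149920-31164324 (plus). Opalin at 19:41061710-41077113 and Myrf at 19:10208272-10240748, both on the minus strand, share a chromosome, and Cnp lies at 11:100574904-100591729 (plus). Cnp overlaps Dnajc7 on the opposite strand, and whether the counting used strand is not given in the sources used here, so Cnp counts are uncertain in classes where they are low. No other member overlaps an annotated gene.

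Of 51926 barcodes, 49292 nuclei were kept, 5265 to 11817 per mouse, from 46798359 to 91495029 UMIs per mouse in the matrix. Clustering left out the 9 members, so that nuclei were not grouped by the genes described, although genes that move with them took part. Class names stand for "-like", and the mature oligodendrocyte class rests on 13 detected markers, with Prr5l, Aspa and St18 among its leading genes. A cluster of 429 shallow nuclei (median 1377 UMIs), 402 of them from trained mouse 6, met no name and is in no class. Libraries of different mice shared 624 barcode sequences. Levels are the gene's share of all UMIs of the class in a mouse, on the usual CPM scale, fold changes come from edgeR, and errors of means are SD. Genes are not ranked against each other by level, since whether reads from introns were counted is not given in the sources used here.

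Mature oligodendrocyte nuclei (5988 nuclei, median 1722 UMIs) carried the members at many UMIs per nucleus. Their median was 18 UMIs of the 9 genes, and 99.9% carried at least 2. After thinning to 2000 UMIs, which left out 3854 shallower nuclei, at least 1 member UMI was found in 100% of the remaining 2134 in every mouse. The same share was 13.8% in 30819 neuronal nuclei, a class not expected to make myelin. That share counts Mbp, of which neurons are known to make golli transcripts. For the 7 members without Mbp and Cnp, chosen after their values were seen, it was 3.25% in neurons. Without thinning the shares of the 9 were 99.98% in mature oligodendrocytes and 46.1% in neurons, at median depths of 1722 and 9120 UMIs. Single genes were found less often in mature oligodendrocytes after thinning, from 98.9% for Mbp, 90.5% for Cldn11 and 90.4% for Mal to 30.7% for Myrf and 30.6% for Opalin.

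In mature oligodendrocytes no member passed the test between trained and control mice. Of 9 members tested, 0 passed an adjusted p of 0.05 in edgeR's quasi-likelihood test, where 0 of 10770 genes did (0%). DESeq2 also called 0. At an unadjusted p under 0.05 the counts were 0 members and 477 genes (4.43%). The 9 estimates had a median of 0.08 on the log2 scale, against 0.01 for all genes tested, 7 above 0 and 2 below. Of all genes tested, 51.9% had an estimate above 0. The standard errors, 0.13 to 0.16, set what 3 mice against 3 could resolve.

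Among the proteins of compact myelin, Mbp had 2782, 2495 and 2475 CPM in trained mice 2, 4 and 6, against 2903, 2435 and 2625 CPM in control mice 1, 3 and 5. The groups overlapped, and the log2 fold change was -0.03 ± 0.14 (SE; adjusted p = 0.994, edgeR). Mobp averaged 1162 ± 218 CPM in trained and 1132 ± 69.5 CPM in control mice (n = 3 each), with 0.05 ± 0.15 on the log2 scale. Its trained mice spanned 968.0 to 1398 CPM, on both sides of every control.

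Mal was the one member whose groups did not overlap. It had 1979, 2022 and 1800 CPM in the trained mice, against 1701, 1726 and 1576 CPM in the controls. The lowest trained mouse lay just above the highest control. The log2 fold change was 0.22 ± 0.13, with an unadjusted p of 0.114 and an adjusted p of 0.990 (edgeR). A gap of this kind with trained mice higher was found in 4.52% of all genes tested, and in either direction in 9.55%. After thinning, Mal was found in 93.6% ± 0.332 of nuclei in trained and 88.1% ± 0.798 in control mice (n = 3 each, exact two-sided permutation p = 0.1, the smallest that 3 against 3 allows). These shares come from the same Mal UMIs as the CPM gap, so they are no separate support. The share of all genes separated in this way was not computed.

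The mitochondrial share of UMIs in mature oligodendrocyte nuclei was separated in the same way. It averaged 0.255%, 0.147% and 0.144% in trained mice 2, 4 and 6, against 0.122%, 0.0913% and 0.126% in controls 1, 3 and 5. Its part in the difference of Mal was not tested. Median UMIs of these nuclei overlapped, at 1985, 1569 and 1893 in the trained mice and 1833, 1566 and 1715 in the controls.

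The adhesion and junction genes overlapped between the groups. Mag had 1400, 1114 and 1072 CPM in trained mice, against 1127, 1165 and 1004 CPM in controls, a log2 fold change of 0.13 ± 0.14. Trained mouse 2 alone stood above the controls. Mog averaged 1247 ± 115 CPM in trained and 1195 ± 106 CPM in control mice (0.07 ± 0.14), and Cldn11 1672 ± 92.3 and 1576 ± 221 CPM (0.09 ± 0.14). Opalin had the lowest estimate, -0.17 ± 0.16, with 176.0, 188.1 and 232.9 CPM in trained and 243.5, 185.2 and 245.4 CPM in control mice. Control mouse 3 lay among the trained mice. The enzyme gene Cnp averaged 825.0 ± 167 CPM in trained and 787.9 ± 105 CPM in control mice (0.08 ± 0.16). The regulator Myrf averaged 196.9 ± 27.7 and 185.0 ± 20.5 CPM (0.10 ± 0.15).

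**Figure D1:**
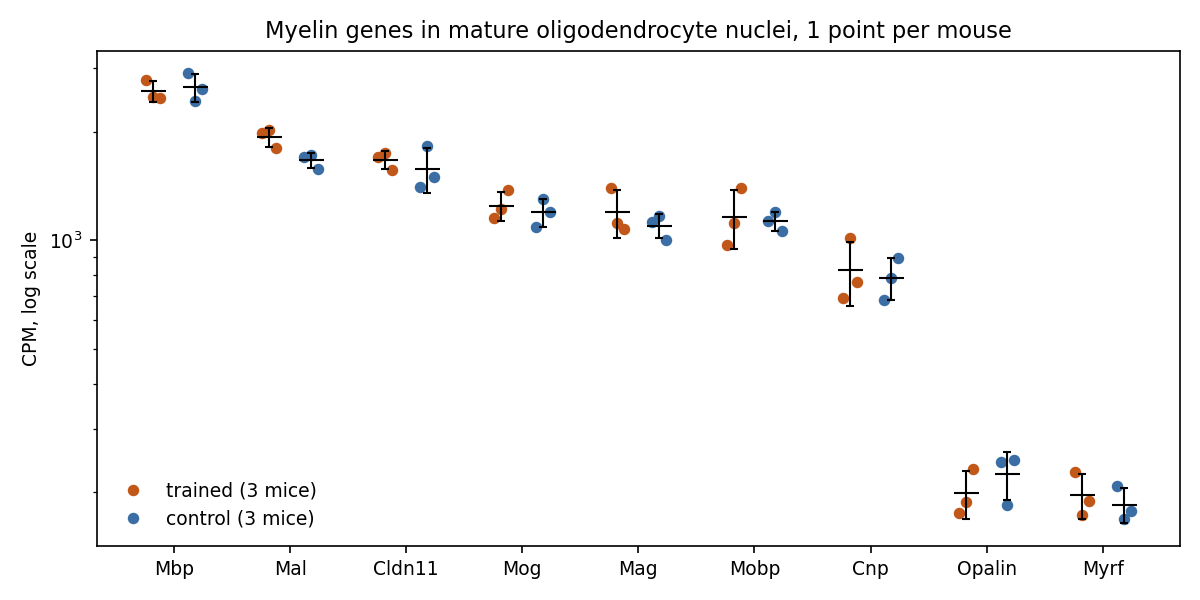
CPM (log scale) of each gene in mature oligodendrocyte nuclei, 1 point per mouse, trained mice left of controls, with the mean and SD of 3 mice. Mal is the gene whose 3 trained mice (1800 to 2022 CPM) all lie above the 3 controls (1576 to 1726 CPM), and the groups of the other 8 genes overlap.

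Other genes of the same cells were described by 6 fixed lists, and none held a gene past the threshold in mature oligodendrocytes. Of 30 other myelin proteins all 30 were tested, 17 estimates were above 0 and 13 below, and the median log2 fold change was 0.02. In 2 of these 30 all trained mice lay above all controls, as in 4.52% of genes tested: Anln, an anillin enriched in oligodendrocytes, with 611.7 CPM in trained and 533.9 CPM in control mice, and Pmp22, a peripheral myelin protein, with 78.6 and 66.2 CPM. Tppp3, a tubulin-associated protein, had a log2 fold change of 0.29 ± 0.18.

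The lists of lipid synthesis gave mixed estimates. Among 18 myelin lipid genes the median was 0.04, and 1 reached an unadjusted p under 0.05. That gene was Ugt8a, the enzyme that makes the myelin lipid galactosylceramide, with 491.6 CPM in trained and 638.5 CPM in control mice (-0.37 ± 0.15, unadjusted p of 0.0233, adjusted p = 0.990, edgeR). Cers2, a ceramide synthase for very long chains, had 206.5 and 167.8 CPM (0.31 ± 0.15), and Elovl7, an elongase of long-chain fatty acids, 192.8 and 227.9 CPM (-0.23 ± 0.15). Of 17 cholesterol synthesis genes tested, 12 estimates were above 0 with a median of 0.09. Msmo1, a sterol oxidase, and Srebf2, the regulator of the pathway, had the smallest p, at 0.25 ± 0.15 and 0.20 ± 0.14.

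Of 16 oligodendrocyte transcription factors tested, 9 estimates were above 0 and 7 below, with a median of 0.09. Sox8 reached an unadjusted p of 0.0437, with 188.2 CPM in trained and 149.1 CPM in control mice (0.34 ± 0.16, adjusted p = 0.990, edgeR). Nkx6-2, a homeobox regulator of myelination, had 0.39 ± 0.20 and St18, a zinc finger factor, -0.29 ± 0.15. Of the 10 tested genes of newly differentiating oligodendrocytes the median was -0.05, with Cnksr3 at -0.25 ± 0.21, the kinase gene Fyn at 0.17 ± 0.18 and Lims2 at -0.16 ± 0.29. Of the 5 tested genes of precursor identity the median was -0.07, with Lhfpl3 at -0.29 ± 0.23, Ptprz1 at -0.31 ± 0.34 and Matn4 at 0.05 ± 0.22. In precursors the same 6 lists also held 0 genes past the threshold.

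How the members stood between the differentiating and the mature stage depended on where the clustering drew the line. Differentiating oligodendrocyte nuclei numbered 195 in all and 15 to 50 per mouse, too few in trained mouse 4 for a test between groups. They carried a median of 48 UMIs of the 9 genes, at a median depth of 4780 UMIs. A coarser clustering, and likewise one with doublets kept, left 113 of the 195 in the differentiating class and placed the other 82 with mature oligodendrocytes. These alternatives were chosen after seeing the data, and the levels are a description with no test.

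The 113 and the 82 nuclei held different sets of members, at median depths of 4780 and 4798.5 UMIs. With 6 mice together, Mal was at 14.1 CPM in the 113 and 2121 CPM in the 82, and Opalin at 6.25 and 847.2 CPM. Mog was at 201.4 CPM in the 113 and 2056 CPM in the 82, and Mobp at 463.7 and 2587 CPM. Mbp (2994 and 4857 CPM), Mag (811.8 and 1380 CPM), Cnp (512.1 and 833.7 CPM) and Cldn11 (750.9 and 1898 CPM) lay closer together. Myrf, the regulator, was at 157.7 CPM in the 113 and 131.0 CPM in the 82. The members took no part in the clustering, but genes that move with them did.

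Mal and Cldn11 were lower in differentiating than in mature nuclei in 6 of 6 mice, both for the 195 nuclei and under each of the other clusterings run. For the 195 nuclei Mal differed by -1.22 ± 0.68 on the log2 scale (SD, n = 6), with 1247, 840.9 and 549.0 CPM in trained mice 2, 4 and 6 and 1287, 360.1 and 773.5 CPM in controls 1, 3 and 5. Under the coarser clustering its difference was far larger, at 14.1 CPM in differentiating and 1792 CPM in mature nuclei (6 mice together). Cldn11 differed by -0.40 ± 0.21 for the 195 nuclei and stood at 750.9 and 1630 CPM under the coarser clustering.

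Mbp was higher in the 195 nuclei than in mature ones in 6 of 6 mice (0.48 ± 0.15 on the log2 scale), but under the coarser clustering in 3 of 6. Opalin was higher in 5 of 6 mice (0.64 ± 0.56) and Mobp in 4 of 6 (0.13 ± 0.46). Both turned under the coarser clustering, Opalin to 6.25 CPM in differentiating and 236.6 CPM in mature nuclei, and Mobp to 463.7 and 1191 CPM. Mog differed by -0.37 ± 0.38 for the 195 nuclei, and stood at 201.4 and 1242 CPM under the coarser clustering. Cnp (-0.34 ± 0.35), Myrf (-0.43 ± 0.22) and Mag (-0.16 ± 0.27) were lower in 5, 5 and 4 of 6 mice for the 195 nuclei.

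**Figure D2:**
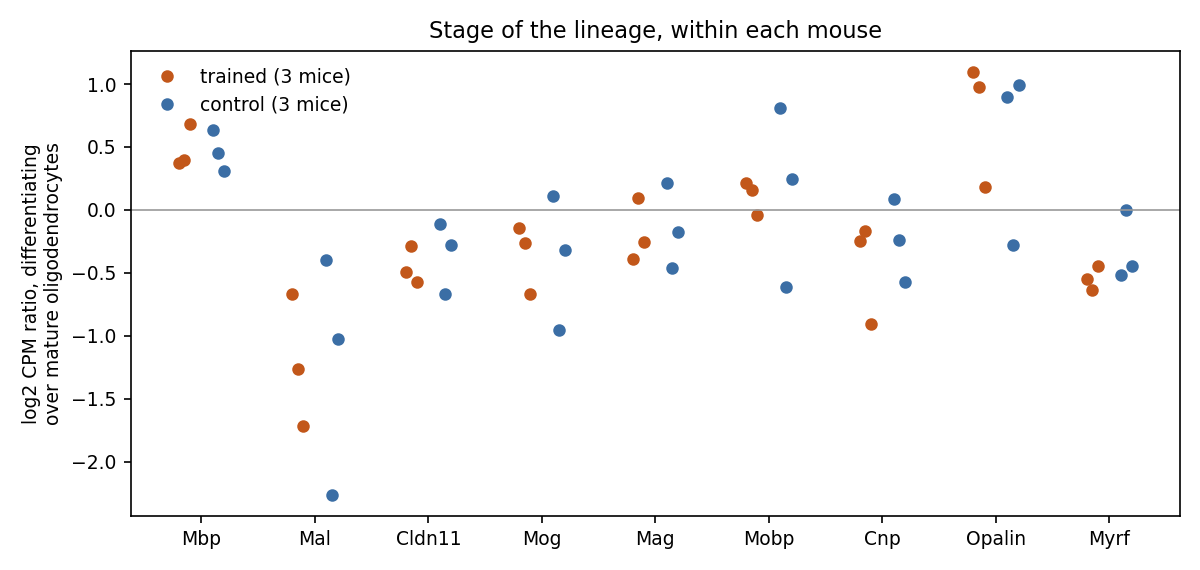
Log2 ratio of CPM in differentiating over mature oligodendrocyte nuclei of the same mouse, for the 195 differentiating nuclei, 1 point per mouse, trained mice left of controls. All 6 points of Mbp lie above 0 and all 6 of Mal and Cldn11 below it. Under the coarser clustering, not plotted, Mbp is higher in 3 of 6 mice, and Opalin and Mobp, above 0 here in 5 and 4 mice, are lower for 6 mice together.

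In oligodendrocyte precursors (1280 nuclei, median 3022 UMIs) most members lay near the level of other cell types. Relative to mature oligodendrocytes of the same mouse, 7 of the 9 had a mean of 0.47% to 1.75% of the level. Cnp stood at 5.48% ± 0.846 and Myrf at 8.84% ± 2.88 (SD, n = 6). A Myrf UMI was found in 67 of the 1280 precursor nuclei (5.23%), and 0 of them had 3 or more, against 1.04% of neurons at a median depth of 9120 UMIs. Leaving aside Mbp and Cnp, precursor nuclei with a Myrf UMI held UMIs of other members in 11.9% of cases, and those without in 12.8%.

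Only 3 members had counts enough for a test in precursors, and 0 of the 3 passed, where 0 of 8314 genes did (0%, and 0 by DESeq2). Mbp had 35.0, 50.6 and 84.4 CPM in trained mice and 37.9, 29.8 and 33.5 CPM in controls. Trained mouse 6 stood highest and trained mouse 2 lay among the controls. The log2 fold change was 0.65 ± 0.28, with an unadjusted p of 0.0295 and an adjusted p of 0.998 (edgeR). At that unadjusted level 312 of all genes passed (3.75%). In trained mouse 6 Mobp (36.7 CPM), Mal (25.7 CPM) and Mog (11.0 CPM) were also highest among the 6 mice, on 72 precursor nuclei. Cnp (0.10 ± 0.27) and Myrf (-0.11 ± 0.41) overlapped.

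The number of oligodendrocyte nuclei captured also enters any sum over the tissue. Mature oligodendrocytes made up 12.7%, 9.29% and 11.4% of nuclei in trained mice 2, 4 and 6, against 13.0%, 12.5% and 13.9% in controls 1, 3 and 5. The groups overlapped, with trained mouse 2 above control mouse 3 (log2 fold change -0.24 ± 0.16, adjusted p = 0.557, edgeR on counts of nuclei; exact permutation p = 0.2). Precursors made up 2.21%, 2.39% and 1.37% in trained mice, against 2.52%, 3.54% and 2.67% in controls. These groups did not overlap, and the difference of -0.54 ± 0.24 had an adjusted p of 0.395 over the 20 classes (edgeR; exact permutation p = 0.1). The whole lineage made up 15.4%, 11.9% and 13.2% of nuclei in trained mice, against 15.96%, 16.4% and 16.9% in controls. All trained mice lay below all controls (exact permutation p = 0.1, the smallest possible), also with the unnamed shallow cluster left out of the total, where trained mouse 6 had 14.3%. Differentiating nuclei averaged 0.366% ± 0.164 in trained and 0.426% ± 0.0599 in control mice (adjusted p = 0.908, edgeR).

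Summed over all nuclei, every member had a lower estimate in trained mice, and none passed. The 9 log2 fold changes ran from -0.38 ± 0.22 for Opalin to -0.04 ± 0.11 for Mal, with a median of -0.14, where all 19546 genes had a median of -0.01. Of these 19546 genes, 45.4% had an estimate above 0. edgeR called 0 of those genes (0%) and DESeq2 4, none of them a member. At an unadjusted p under 0.05 there were 636 (3.25%) and no member. The trained and control mice overlapped for all 9 members, as against 8.58% of genes with separate groups. Mbp, for example, had 154.9, 112.0 and 137.0 CPM in trained and 158.2, 142.4 and 151.1 CPM in control mice. In such sums fewer oligodendrocyte nuclei and less RNA per nucleus cannot be told apart. The class sums and the shares of nuclei above give them separately.

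**Figure D3:**
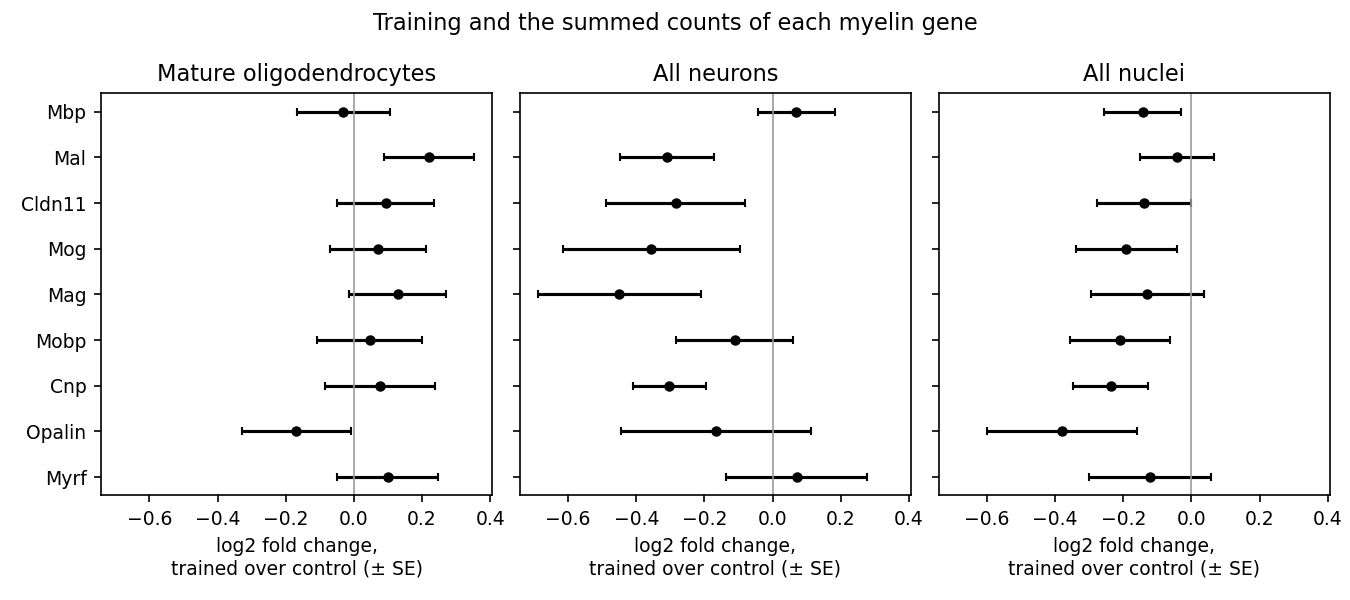
Log2 fold change, trained over control, with its standard error (edgeR, 3 mice against 3), in mature oligodendrocytes, all neurons and all nuclei. Estimates in all nuclei lie below 0 for all 9 genes, whereas 7 of 9 lie above 0 in mature oligodendrocytes, and none passed the threshold.

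Outside the lineage most members were found at a low level in most classes. Opalin and Myrf had 0 UMIs in L6b nuclei and Myrf 0 in pericyte and smooth muscle nuclei, and Mal in endothelial and Cldn11 in vascular and leptomeningeal nuclei stood apart. In all 30880 neuronal nuclei, Mal stood at 0.180% ± 0.0391 of the level in mature oligodendrocytes of the same mouse, Mag at 0.148% ± 0.0412, Mog at 0.159% ± 0.0368, Cldn11 at 0.235% ± 0.0451 and Opalin at 0.187% ± 0.0274 (SD, n = 6). These 5 genes ran from 0.148% to 0.235% over all neurons and lay further apart in some classes. In L5 IT neurons, for example, Mag stood at 0.057% and Cldn11 at 0.146%. Over all neurons Mobp (0.455% ± 0.0800), Myrf (0.563% ± 0.109) and Cnp (1.04% ± 0.232) stood above these 5, and Mbp highest at 2.13% ± 0.173. Mbp made up 68.5% ± 4.12 of member UMIs in neurons, against 24.4% ± 2.11 in mature oligodendrocytes.

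Counted per nucleus, the low signal of Mal, Mog and Cldn11 was similar in most classes over a wide range of depth. Mal had 0.0233 to 0.0333 UMIs per nucleus in 11 of 18 classes outside the lineage, all within 1.5-fold of the median over classes. The median depth of those 11 classes spanned 1492 to 14605 UMIs. For Mog, likewise 11 of 18 classes lay within 1.5-fold of the median, 0.0137 to 0.0305 UMIs per nucleus, and for Cldn11 14 of 18, 0.0290 to 0.0509. On the CPM scale, 7 of 18 classes lay within that window for Mal and Mog and 9 for Cldn11. For the other members the 2 scales differed less. Per nucleus and by CPM, the classes in the window numbered 14 and 12 for Cnp, 10 and 8 for Mobp and 10 and 9 for Opalin. They numbered 8 and 6 for Mag, 5 and 5 for Myrf and 7 and 8 for Mbp. Similar numbers of UMIs per nucleus went with a higher CPM in shallow classes such as microglia (20.6 CPM of Mal, 0.0333 UMIs per nucleus) than in deep ones such as L5 IT neurons (1.72 CPM, 0.0233 UMIs per nucleus).

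Some classes held single nuclei with many member UMIs. Leaving aside Mbp and Cnp, 46 of 30880 neurons (0.149%) had 10 or more UMIs of the other 7 genes and carried 12.0% of all such UMIs in neurons, while 86.4% had none. That share of UMIs was 54.8% in L6b (1 nucleus), 45.8% in Lamp5 (6 nuclei), 33.0% in L5 ET (13 nuclei) and 30.8% in Vip neurons (6 nuclei). In Lamp5, L5 ET and Vip neurons Mal per nucleus (0.0598, 0.0761 and 0.0609) stood above the range given. In Pvalb and L5/6 NP neurons, with shares of 21.6% and 18.7%, Mal per nucleus lay inside that range. Doublets had been removed per mouse, and whether these nuclei are doublets left behind was not tested.

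**Figure D4:**
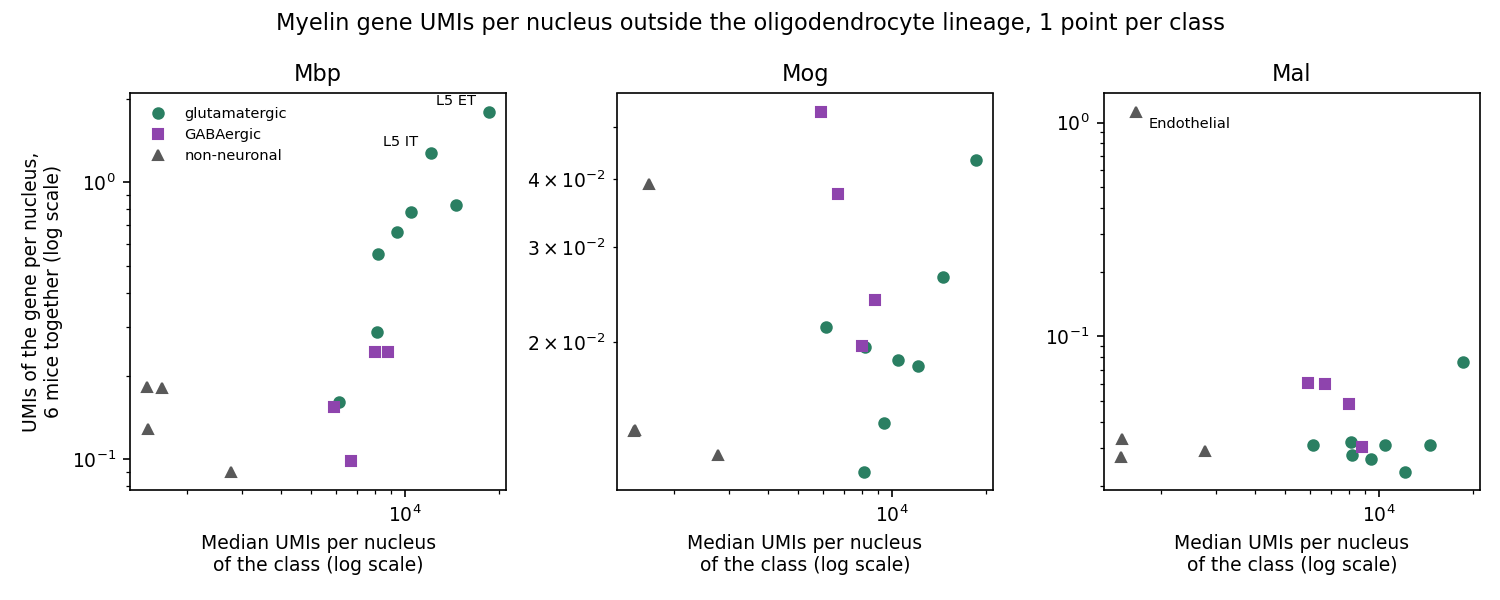
UMIs of Mbp, Mog and Mal per nucleus (log scale) against the median UMIs per nucleus of the class (log scale), 6 mice together, 1 point per class outside the lineage, without L6b and the vascular and leptomeningeal class. Mbp is highest in L5 ET (1.80) and L5 IT (1.28) neurons and is higher in deep glutamatergic classes, Mog spans 0.0115 to 0.0534 without such an order, and endothelial nuclei stand apart for Mal (1.13).

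Mbp did not follow that pattern. Its level was highest among neurons in L5 IT (94.2 CPM, 78.5 to 109.5 over 6 mice) and L5 ET (81.1, 52.8 to 116.2), then in L6 IT (65.7), L2/3 IT (63.8) and L4/5 IT (60.2). L5 ET overlapped with L5 IT and with the 3 classes after it, which overlapped among themselves. The unnamed glutamatergic cluster 7 had 48.4 CPM. L6 CT (32.3) came next and overlapped with Sst (27.4), Pvalb (25.0), L5/6 NP (23.0), Vip (22.6) and Lamp5 (14.2) neurons, which overlapped among themselves. These overlaps are of ranges over mice, and the classes come from the same 6 mice. Within every mouse Mbp was higher in L6 CT than in Sst and in L5/6 NP neurons. Against Pvalb, Vip and Lamp5 neurons this did not hold in every mouse. L5 IT lay above L6 IT within every mouse, although their ranges overlapped. Over all neurons, glutamatergic nuclei had 69.8, 59.0 and 61.4 CPM of Mbp in trained mice, where GABAergic nuclei had 21.8, 22.8 and 23.9. In the controls the values were 68.2, 60.8 and 51.2 CPM in glutamatergic and 22.5, 25.0 and 27.7 CPM in GABAergic nuclei.

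The excess of Mbp in neurons over what the other members show can be put as a fold. Each gene's level in a class was divided by its level in mature oligodendrocytes of the same mouse, and Mbp was set against the median of the 9 ratios. In L5 IT neurons Mbp stood 15.8-fold to 30.3-fold above that median in the 6 mice, with a median of 21.2-fold. The median fold was 15.3 in L5 ET, 13.4 in L2/3 IT and 11.3 in L6 IT neurons, against 1.11 in Lamp5 and 1.72 in Vip neurons and 2.04 in astrocytes. Between these lay L6 CT (5.61), Sst (3.99), Pvalb (3.69) and L5/6 NP neurons (2.61), the last a glutamatergic class below 2 GABAergic ones. Pericyte and smooth muscle nuclei stood at 7.29, with 110.6 CPM of Mbp (63.85 to 222.2 over 6 mice), on 120 UMIs. An Mbp UMI was found in 1788 of 2880 L5 IT nuclei (62.1%, median depth 12101 UMIs). Leaving aside Cnp, UMIs of other members were found in 19.4% of L5 IT nuclei with an Mbp UMI and in 16.8% of those without.

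Mal stood apart in endothelial nuclei, which were led by Slco1a4, Ly6c1, Flt1 and by haemoglobin genes. It had 544.5, 343.1 and 467.2 CPM there in trained mice and 454.7, 574.6 and 357.1 CPM in controls, 25.5% ± 5.43 of the mature oligodendrocyte level. The groups overlapped (-0.02 ± 0.29 on the log2 scale, adjusted p = 1.00, edgeR). A Mal UMI was found in 138 of 281 endothelial nuclei (49.1%, median depth 1666 UMIs), against 4.10% of vascular and leptomeningeal nuclei (median depth 2347 UMIs). Leaving aside Mbp and Cnp, other members were found in 6.52% of endothelial nuclei with Mal and in 7.69% of those without. Mag, Opalin and Myrf were at 0 in 5, 5 and 4 of the 6 mice.

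Cldn11 stood apart in the vascular and leptomeningeal class, and unevenly among its 3 clusters. In cluster 26 (78 nuclei, led by Fn1, Prg4 and Bnc2) it had 865.9, 1278 and 1539 CPM in trained mice and 897.3, 1005 and 866.7 CPM in controls, 66.5% of the mature oligodendrocyte level on average, and 71 nuclei (91.0%) had a UMI. In cluster 22 (163 nuclei) 41.7% of nuclei had one, and in cluster 14 (661 nuclei) 6.96%, at median depths of 2616, 3147 and 2143 UMIs for clusters 26, 22 and 14. Members other than Mbp and Cnp were found in 8.45% of nuclei with a Cldn11 UMI in cluster 26 and in 0% of the few without. In cluster 22 the shares were 20.6% with and 11.6% without, and in cluster 14 they were 17.4% and 6.02%.

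Myrf and Cnp each stood above the median ratio of the 9 genes in a wider set of classes. Myrf stood at 1.90% of the mature oligodendrocyte level in L5 ET, 1.74% in L5/6 NP and 1.29% in Pvalb neurons, against 0.0756% in cluster 7 and 0.184% in L2/3 IT neurons. Mbp was higher in L5 ET (3.07%), and Cnp in L5/6 NP neurons (1.86%). The Myrf values rest on 31 UMIs in L5/6 NP neurons and on 0 to 2 UMIs per mouse in cluster 7. Cnp stood at 3.36% ± 0.225 in astrocytes, at 6.92 times the median ratio of the 9 genes there, and at 3.69% in microglia (2.70 times). In L2/3 IT neurons it stood at 6.34 times that median. Mobp was relatively high in L4/5 IT (0.848%) and L5 IT neurons (0.771%), against 0.167% in L5 ET and 0.180% in Sst neurons. Mag had 20.7 CPM in microglia (1.82% of the mature level), where Mog had 8.0 CPM (0.675%).

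**Figure D5:**
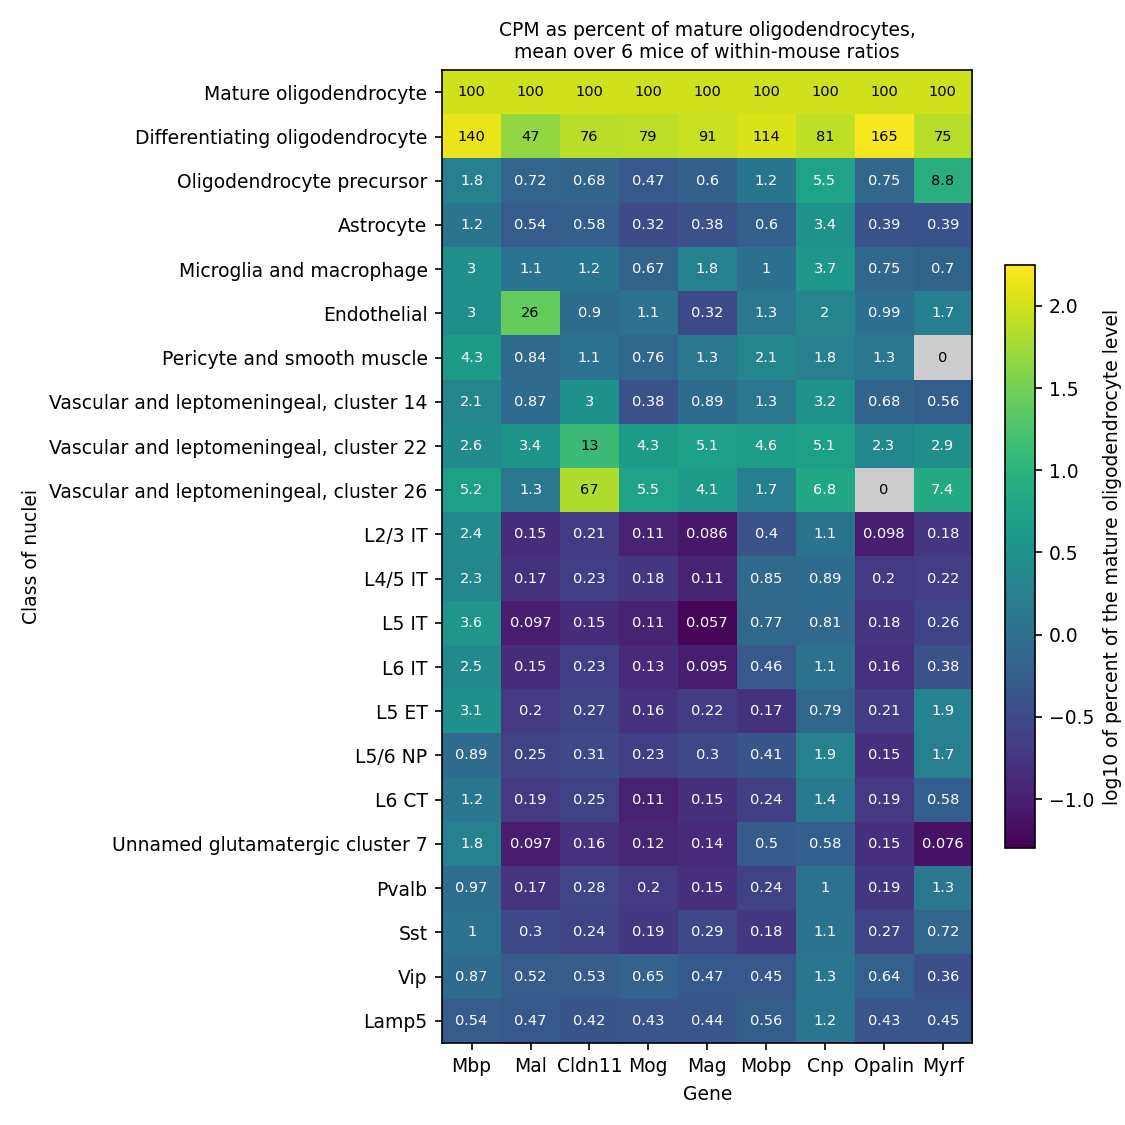
CPM of each gene in each class as a percentage of mature oligodendrocytes of the same mouse, mean over 6 mice, with colour on a log10 scale and grey where no UMI was found. The brightest cells outside the lineage are Mal in endothelial nuclei (25.5%) and Cldn11 in vascular and leptomeningeal clusters 26 (66.5%) and 22 (13.0%), and the Mbp column is brighter in the intratelencephalic (IT) and L5 ET neurons than in GABAergic neurons.

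The pattern of the 9 genes over 21 classes was compared with that of 3582 genes having at least 50 CPM in mature oligodendrocytes, as the correlation with their mean log2(CPM + 1). Among the 10 most alike were Rnf220 (Pearson r = 0.968), Adamts4, Sec14l5, Tnni1, Josd2, Nkx6-2, Cldn14, Gm4593 and Gm48508 (r = 0.948). Rnf220, a ubiquitin ligase gene, was at 1077 CPM in mature oligodendrocytes. The members themselves ranged from 0.993 for Mog and 0.988 for Opalin to 0.909 for Myrf and 0.908 for Mbp. Each member is part of the mean it was compared with, which raises its r, so these values cannot be set against those of other genes. The classes share libraries and differ in depth, so these values describe likeness only.

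In neurons the members were tested in the same way. Of 9 members 0 passed, where 0 of 18631 genes did (0%). DESeq2 called 1 gene, which is no member. At an unadjusted p under 0.05 there were 569 genes (3.05%) and 1 member. Of the estimates 7 were below 0, and the median log2 fold change was -0.28, against -0.01 for all genes. Among all genes tested 47.7% had an estimate above 0. Cnp had 7.12, 7.08 and 7.69 CPM in trained mice and 9.65, 8.93 and 8.86 CPM in controls (-0.30 ± 0.11, unadjusted p of 0.0215, adjusted p = 1.00, edgeR). Mal had 3.07, 2.63 and 2.80 CPM in trained mice and 3.36, 3.84 and 3.50 CPM in controls (-0.31 ± 0.14). For both genes all trained mice lay below all controls, as for 5.27% of genes tested. Mbp overlapped, with 61.8, 53.6 and 54.4 CPM in trained and 61.2, 55.9 and 47.2 CPM in control mice (0.07 ± 0.11).

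The neuronal level was also set against that of mature oligodendrocytes in the same mouse. For the 9 genes summed the ratio was 0.769%, 0.679% and 0.721% in trained mice 2, 4 and 6, against 0.821%, 0.801% and 0.738% in controls 1, 3 and 5. The groups overlapped (log2 difference -0.12, exact two-sided permutation p = 0.2). For the 7 genes without Mbp and Cnp, a set chosen after their values were seen, it was 0.214%, 0.193% and 0.213% in trained mice and 0.220%, 0.286% and 0.292% in controls. Here the groups did not overlap (log2 difference -0.36, exact p = 0.1, the smallest possible). Among single members Mal (-0.55) and Mag (-0.63) were separated likewise, and the others overlapped. For Mal this follows from its separate groups given above, higher in mature oligodendrocytes and lower in neurons. The share of all genes with separate ratios was not computed, so these gaps have no background to be set against. Neurons had a median of 10207, 7919.5 and 10570 UMIs in trained mice and 10323, 8010 and 9061 UMIs in controls, and the part of depth was not tested.

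Whether training moved a member differently in mature oligodendrocytes than in neurons was tested as an interaction with the mouse as a block, and no member passed. The differences of log2 fold changes, mature oligodendrocytes minus neurons, were 0.52 ± 0.19 for Mag and 0.47 ± 0.17 for Mal, with adjusted p of 0.629 and 0.568 (edgeR). For Cnp the difference was 0.32 ± 0.15 (adjusted p = 0.772, edgeR). The other 6 ran from -0.16 ± 0.14 for Mbp to 0.36 ± 0.19 for Mog. Of 17554 genes tested, 1 passed (0.0057%). An unadjusted p under 0.05 was found for Mag, Mal and Cnp, 3 of the 9 members, and for 1065 genes (6.07%).

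In the other classes no member passed either, among 1 to 7 members tested per class. The low-count filter asks for enough counts in 3 mice, so a member can enter a test through 1 group alone. Members low in both groups were not tested. The called share of all genes was 0.195% in astrocytes (24 genes), 0.0426% in microglia (4 genes) and 0% in the rest. An unadjusted p under 0.05 was reached by 3 of 5 members in L6 IT, where 3.15% of genes reached it, and by 2 of 4 in Vip neurons (3.94%). It was reached by 1 member each in astrocytes (8.33% of genes), L5 IT (5.27%), Pvalb (2.29%) and Sst neurons (3.01%), the vascular and leptomeningeal class (7.19%) and cluster 7 (5.48%).

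All trained mice lay below all controls for several members in these classes. This held for 3 of 4 members tested in Vip neurons (6.59% of genes), 2 of 4 in Sst (5.33%) and 2 of 5 in L6 IT neurons (5.47%). It held for 1 member each in L5 ET (Myrf, 4.78%), L5 IT (Mal, 6.33%) and L6 CT neurons (Cnp, 3.97%) and in cluster 7 (Cnp, 7.19%). The reverse held for Mobp in L5 IT (4.40% of genes) and for Mbp in Pvalb neurons (3.98%). Some of the members lower in trained mice met the low-count filter through the controls alone. In Vip neurons Cldn11 had 9, 5 and 4 UMIs in trained mice 2, 4 and 6, against 20, 14 and 17 in controls 1, 3 and 5. Cnp had 9, 12 and 7 there, against 30, 16 and 12. Counts out of members tested are therefore no support for a direction.

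In Vip neurons Mbp averaged 16.2 CPM in trained and 28.9 CPM in control mice (-0.75 ± 0.26, unadjusted p of 0.0114, adjusted p = 1.00, edgeR). In Sst neurons Mal averaged 2.99 CPM in trained and 7.45 CPM in control mice (-1.32 ± 0.37, unadjusted p of 0.00293, adjusted p = 1.00, edgeR). Mal had 6, 7 and 10 UMIs there in trained mice 2, 4 and 6, against 28, 28 and 14 in controls 1, 3 and 5. It met the low-count filter through the controls alone. In Vip neurons 13 of 1199 nuclei had 10 or more UMIs of the 9 members and carried 39.6% of these UMIs. In Sst neurons 9 nuclei did and carried 12.4%. Their part in the differences was not tested. In L5 IT neurons Mobp went the other way, with 10.2 CPM in trained and 7.23 CPM in control mice (0.52 ± 0.20, unadjusted p of 0.0238, adjusted p = 0.811, edgeR). In cluster 7 Cnp averaged 2.78 CPM in trained and 6.33 CPM in control mice (-1.13 ± 0.38, adjusted p = 0.735, edgeR). Cnp had 6, 10 and 10 UMIs there in trained mice, against 36, 20 and 21 in controls, and it too met the filter through the controls.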

How the data were processed

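Nuclear RNA of the motor cortex of 6 mice was measured by droplet single-nucleus sequencing with 3' capture. The authors deposited UMI counts per gene and barcode in 1 matrix, in which a shallow and a deep run of each mouse are joined. Each mouse is therefore 1 replicate, known from the barcode suffix. Cell Ranger 4.0.0 and mm10 are named in the submitters' processing notes. Whether introns or strand were used is not given in the sources used here.

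Barcodes with at least 500 genes and under 5% mitochondrial UMIs were kept, scrublet marked 2391 doublets (3.29% to 5.70% per mouse), and nuclei were clustered with Leiden (scanpy 1.11.5, resolution 1.0, 30 components, 20 neighbours) without the 9 members and 1 further gene. Genes of neuronal activity, the clock and stress were left out too. A cluster was named from the fixed marker list that held most of its 10 leading genes by fold, given at least 3 markers detected in 10% of nuclei. A single leading marker shared with another class gave no name.

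Counts were summed per mouse and class and tested by edgeR 4.0.16 (R 4.3.3; quasi-likelihood, TMM, filterByExpr, Benjamini-Hochberg over all genes, threshold 0.05) where every mouse had at least 20 nuclei. DESeq2 1.42.0 was the other tool. Single values were tested by exact two-sided permutation over mice (scipy 1.17.1), which cannot give a p under 0.1. The mice are separate animals per the labels, and no batch is given. Fits were tested on simulated data. Genes named are all members, the 3 of smallest p of each list in mature oligodendrocytes, genes past the threshold there, in precursors and in the interaction, and the 10 most alike in pattern. Some genes that this rule names are not reported here. The members and lists were chosen with earlier results of these data known. Alternatives were another scaling, no filter, DESeq2, a depth covariate, coarser clustering, clustering with the members allowed, doublets kept, thinning to 1000 UMIs, another denominator and each mouse left out.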

Additional observations from a re-analysis of the deposited data

Results flagged for a closer look

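Tanc1, which encodes a scaffold protein of synapses and is no member of the set, was the 1 gene whose difference between trained and control mice differed between mature oligodendrocytes and neurons by the interaction test. The difference of log2 fold changes, mature oligodendrocytes minus neurons, was -0.88 ± 0.16 (SE; adjusted p = 0.0180, edgeR quasi-likelihood test with the mouse as a block). In mature oligodendrocytes Tanc1 had 201.2, 172.6 and 164.5 CPM in trained mice 2, 4 and 6, against 220.8, 186.8 and 205.3 CPM in controls 1, 3 and 5. In neurons it had 51.9, 37.6 and 41.6 CPM in trained mice, against 25.6, 37.1 and 23.6 CPM in controls. Without trained mouse 6 no gene passed this test. Its cause was not tested.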

How the results depend on the processing

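No paired analysis was possible because trained and control mice share no replicate numbers. No member passed the threshold under any alternative run, and the smallest adjusted p was 0.678 in mature oligodendrocytes, 0.872 in precursors, 0.415 in neurons, 0.519 in all nuclei and 0.252 in the interaction (edgeR or DESeq2). Of 453 values of single members, 31 changed sign. Of 109 summary values, 91 were labelled the same as the reported one, 16 moved and 2 reversed. Apart from counts of calls, that label asks only for the same sign and the same side of the threshold. It does not ask for a similar size, and exact permutation p cannot cross the threshold here. With each mouse left out, the log2 fold change of the share of precursors ran from -0.695 to -0.34. That of mature oligodendrocytes ran from -0.3431 to -0.1217. The causes of the changes were not tested.

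Without the low-count filter, 33 genes were called in mature oligodendrocytes, 3 in precursors and 21 in the interaction. DESeq2 called 1 gene in neurons and 4 in all nuclei, and median UMIs as a covariate gave 2 calls in precursors. With that covariate the log2 estimates turned to -0.0024 (Mobp) and -0.0314 (Myrf) in mature oligodendrocytes, 0.1075 (Myrf) in precursors, and 0.0686 (Mobp) and -0.02 (Mbp) in neurons. With doublets kept they turned to 0.0585 (Mbp) in mature oligodendrocytes, 0.0211 (Myrf) in precursors and -0.0191 (Myrf) in neurons, and RLE scaling turned the Myrf interaction to 0.0151. The neuronal ratio over all nuclei as denominator was 0.1238 on the log2 scale, trained over control (exact permutation p = 0.6). The thinned share of mature oligodendrocytes with a member UMI, with no difference at 2000 UMIs, differed by 0.07 percentage points at 1000 UMIs and 0.44 with doublets kept.

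With each mouse left out, calls ran from 0 to 2 in mature oligodendrocytes, 0 to 3 in precursors and 0 to 81 in the interaction, where leaving out trained mice 2 and 6 gave 22 and 0 calls and leaving out controls 1, 3 and 5 gave 18, 81 and 3, each on its own. Log2 estimates in mature oligodendrocytes ran from -0.1209 to 0.1733 (Mobp), -0.1054 to 0.1973 (Cnp), -0.0169 to 0.1394 (Mog), -0.0876 to 0.0384 (Mbp) and -0.008 to 0.1949 (Myrf). They ran from -0.1674 to 0.2496 (Cnp) and -0.3093 to 0.1258 (Myrf) in precursors, and from -0.0353 to 0.1718 (Mbp), -0.0881 to 0.185 (Myrf) and -0.2892 to 0.0366 (Opalin) in neurons. In all nuclei they ran from -0.1621 to 0.0656 (Mal), -0.3496 to 0.0363 (Mag) and -0.2895 to 0.0664 (Myrf). Interaction estimates ran from -0.1847 to 0.1724 (Myrf), -0.2379 to 0.0817 (Opalin) and -0.0813 to 0.2459 (Mobp), and the share of differentiating nuclei from -0.5413 to 0.1078.

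For 6 mice together, the log2 difference of differentiating over mature nuclei turned to -5.2434 (Opalin) and -1.3607 (Mobp) under coarser clustering and to -4.7261 and -1.0748 with doublets kept, where 82 of the 195 nuclei counted as mature. These alternatives were chosen after seeing the data, as was leaving out the unnamed shallow cluster, with which calls in all nuclei also numbered 0. Only 3 mice per group, 15 to 50 differentiating nuclei per mouse and the low UMI counts outside the lineage limit what could be detected. Intervals of counting error do not cover variation between mice.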
